A study of Mus musculus with 9 samples.

Results

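Gene expression was compared between cultured mouse myoblasts that overexpressed Pax7 and myoblasts that carried an empty vector. Myoblasts are the dividing precursor cells of skeletal muscle. The cells were of Balb/c background and came from skeletal muscle. The medium of every group was Ham's F10, to which 20% serum and 4 ng/ml of the growth factor bFGF had been added, a recipe that keeps myoblasts dividing. The comparison used 6 of the 9 arrays of the series, chosen by their labels alone. These were 3 arrays of Pax7-overexpressing cells and 3 of the control that the labels call CTAP Control. The other 3 arrays, from myoblasts that overexpressed Pax3, served as the most similar group for a second comparison. Each array measured total RNA as log2 intensities, in which a difference of 1 log2 unit is a 2-fold change. The labels call the control an empty vector control, give no further detail of the vector and no clone, and do not tell if a group's 3 samples are separate cultures. The p-values therefore reflect the spread among these samples alone, and that spread may be technical.

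Pax7 is a transcription factor with a paired domain and a homeodomain. It marks satellite cells, the stem cells that lie on adult muscle fibres, and is kept in their dividing progeny. In textbook myogenesis Myf5 and Myod1 commit cells to the lineage. Myogenin (Myog) and the Mef2 factors then turn on the genes of the contractile fibre, and Pax7 is lost as myoblasts leave the cell cycle and fuse. Its close relative Pax3 is best known from the migrating muscle precursors of embryos.

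The control cells carried the markers of myoblasts. Of the 8 markers fixed for this cell type, Myf5 was the lowest on control arrays with a mean of 9.40, on a scale that ran from 1.93 to 13.23. The arrays were alike in scale, with medians between 6.397 and 6.477. Arrays of a group correlated at 0.997 to 0.999 across 25668 probe sets, Pax7 and control arrays at 0.971 to 0.974, and Pax7 and Pax3 arrays at 0.994 to 0.995. No 2 arrays held identical columns. Single genes did hold exact repeats, and all 3 arrays of a group gave the same value for 264 genes in the control group, 340 with Pax3 and 362 with Pax7. The spread of such a gene is understated, and among the genes named here this touches Alpl, Bmp6, Cacna1s, Cdh1, Dmrt2, Ephb3, Grb10, Itgb4, Krt18, Ryr1, Tagln, Tgfa and Trim63. The control and the Pax7 cells may come from different animals. The female marker Xist read at most 4.85 on any control array and at least 11.70 on any Pax7 or Pax3 array. Differences between animals therefore cannot be told apart from those of the Pax7 construct in the comparison with control. Pax7 and Pax3 arrays lay on the same side of that split, which does not show that they came from the same animal or culture. X- and Y-linked marker genes were not interpreted further. Other genes named below also lie on the X chromosome, among them Car5b, Bgn, Gla, Lamp2 and Mbnl3. The part of that split in their differences from control was not tested. No detection values were used here. Marker lists of fibroblasts, endothelial cells, macrophages, adipocytes and melanocytes averaged 5.09 to 5.65 log2 units on control arrays. The lists of Schwann cells and pericytes averaged higher, at 6.77 to 6.81 and 7.40 to 7.51. Single adipocyte markers had means up to 9.58 over the 9 arrays, so such averages do not measure background. A reading near 5.09 to 5.65 was not shown to lie above background, and a fold change from or to it describes the intensities as given.

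Pax7 itself was higher in the cells labelled as overexpressing it. Its log2 intensity was 12.25, 12.31 and 12.27 on the 3 Pax7 arrays, against 10.47, 10.45 and 10.60 on the control arrays. The groups did not overlap, and the difference of 1.77 ± 0.053 (SE) was a 3.40-fold rise (limma adjusted p = 4.04e-10). The control cells thus already expressed Pax7 at a high level, and the probe set cannot separate the cells' own transcript from the introduced one. On the Pax3 arrays Pax7 read 8.15, 8.26 and 8.14, below the control. Pax3 read 5.91, 5.78 and 5.80 on control and 6.80, 6.87 and 6.80 on Pax7 arrays, a difference of 0.99 ± 0.049. It stood at 11.10, 11.01 and 11.04 where Pax3 itself was overexpressed, far above its level on the Pax7 arrays. The Pax3 and Pax7 transcripts are alike in sequence, and whether the Pax3 probe set read some of the introduced Pax7 was not tested. Of the 9 Pax genes measured, 3 rose between Pax7 and control arrays and none fell in limma at adjusted p under 0.05. The third was Pax9, a Pax gene of the sclerotome and pharynx, at 0.75 ± 0.079. Pax1, Pax2, Pax4, Pax5, Pax6 and Pax8 differed by 0.02 to 0.17 log2 units and did not pass.

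The Pax7 and control arrays differed in a large share of the transcriptome. Of 19661 genes, 8485 (43.2%) passed the threshold in limma, an adjusted p under 0.05. Of these, 4253 (21.6%) were higher and 4232 (21.5%) lower in Pax7 arrays. For 10907 genes (55.5%) every Pax7 array lay on the same side of all control arrays. A smaller set of 1294 genes (6.58%) both passed and differed by 1 log2 unit or more, of which 647 (3.29%) were higher and 647 (3.29%) lower. These shares are the background against which each gene group below is read. Over all genes the median difference was 0.03 log2 units. Between Pax7 and Pax3 arrays 3316 genes (16.9%) passed, 1637 higher (8.33%) and 1679 lower (8.54%) in Pax7 arrays. Restricted to the 18867 autosomal genes, the share past the threshold was 43.5% against control and 16.8% against Pax3.

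**Figure D1:**
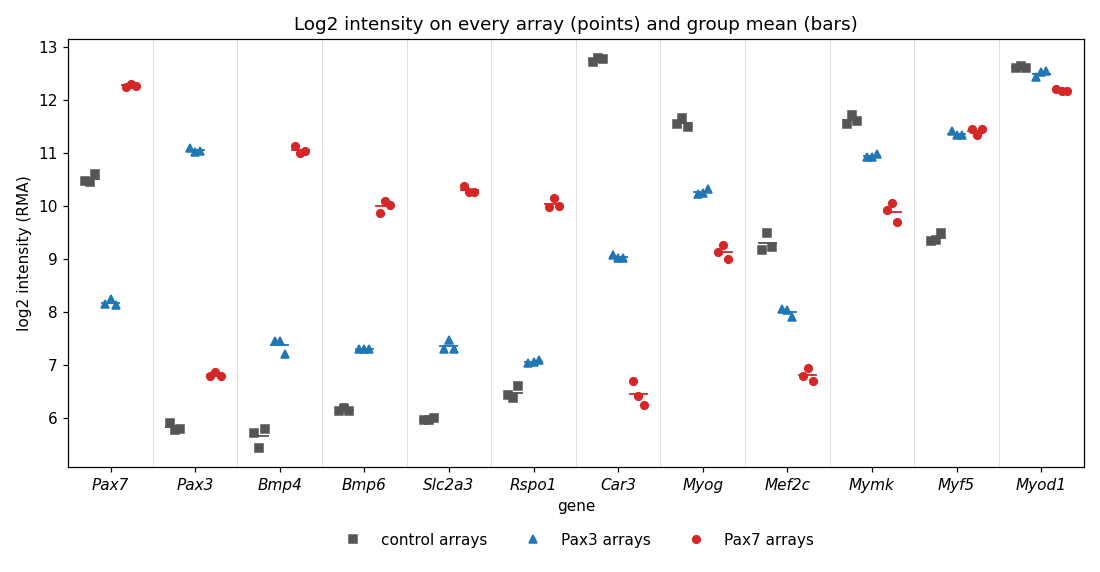
Log2 intensity of 12 genes on each of the 9 arrays (control grey squares, Pax3 blue triangles, Pax7 red circles), with a bar at each group mean. For Bmp4, Bmp6, Slc2a3 and Rspo1 the Pax7 arrays lie far above both other groups, for Car3, Myog, Mef2c and Mymk below both, and for Myf5 the Pax3 and Pax7 arrays lie together above the control.

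The largest rises and falls spread over many kinds of genes, and among the 15 largest falls Myh1 and Tnnt1 belong to the contractile fibre. Prl2c5, a prolactin-family hormone of the placenta, rose from 3.60, 4.29 and 4.16 on control arrays to 10.97, 10.98 and 11.001 on Pax7 arrays, and near-identical relatives can share its signal. The neurofilament light chain Nefl, a structural protein of axons, rose by 5.62 ± 0.068 log2 units. The collagen receptor subunit Itga2 rose by 4.96 ± 0.051 and desmoplakin Dsp, which anchors keratin filaments at cell junctions, by 4.83 ± 0.107. The engulfment receptor Mertk rose by 4.36 ± 0.096 and the fatty acid elongase Elovl7 by 4.45 ± 0.071. Mesothelin Msln, Epb41l4a, Niban1, the amino acid transporter Slc6a15, the serine proteases Klk14 and Tmprss11f and the LIM protein Zfp185 rose by 4.22 to 4.99 log2 units. At the other end, Car3 is described below, and the chemokine Cxcl13 fell from 10.54, 10.64 and 10.49 to 4.31, 4.40 and 4.39. Neuritin Nrn1, a surface protein of neurons, changed by -5.30 ± 0.092, and the metalloproteinase inhibitor Timp3 by -4.88 ± 0.094. The remaining large falls included Prr32, Asb4, Islr, the splicing regulator Rbfox1, the kinase Camk1g, the matrix protein Postn, the adhesion receptor Adgrl3, the chloride channel Ano1 and the neuropeptide receptor Adcyap1r1, at -4.77 to -3.50 apart from Prr32 at -4.84.

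Many of these large changes were also present on the Pax3 arrays, which share the comparison with the same controls. Nefl read 11.20, 11.25 and 11.24 on Pax3 arrays and 11.14, 11.12 and 11.25 on Pax7 arrays, a difference of -0.06 ± 0.068 that did not pass (adjusted p = 0.637). Cxcl13 read 4.27, 4.28 and 4.37 on the Pax3 arrays, and its difference from Pax7 arrays was 0.06 ± 0.053. Itga2 differed by 0.06 ± 0.051 between the Pax groups. Of the 15 largest rises, Bmp4, Slc2a3, Klk14, Mertk, Tmprss11f, Elovl7 and Zfp185 were also higher on Pax7 than on Pax3 arrays by more than 1 log2 unit. Among the 15 largest falls, Car3 fell further on Pax7 arrays by 2.59 log2 units and Postn by 1.00.

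Bone morphogenetic proteins (BMPs) are secreted ligands that bind pairs of type I and type II receptors and signal through Smad1, Smad5 and Smad9. Antagonists outside the cell hold the ligands, and Id genes are the classical targets. In muscle, BMP signals keep precursors dividing and delay differentiation. On the Pax7 arrays 2 ligands rose strongly and most of the others did not pass. Bmp4 read 5.73, 5.45 and 5.81 on control, 7.46, 7.45 and 7.22 on Pax3 and 11.13, 11.01 and 11.04 on Pax7 arrays. The 3 groups did not overlap, and the intensity was 42.1-fold that of control (5.40 ± 0.094 log2 units, adjusted p = 9.46e-12). The control readings of Bmp4 lay near the level of the lower of those marker lists, so they were not shown to be above background. Against Pax3 arrays Bmp4 was 12.8-fold higher (3.68 ± 0.094, adjusted p = 2.07e-09). Bmp6 went the same way, from 6.14, 6.21 and 6.15 on control arrays through 7.31, 7.31 and 7.31 on Pax3 arrays to 9.87, 10.11 and 10.02 on Pax7 arrays. It was 14.3-fold above control and 6.42-fold above Pax3 arrays.

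Among all 17 ligand genes measured, 5 rose, 1 fell and 11 did not pass, against 21.6% of all genes that rose. The other 3 rises were small, with Gdf6 at 0.30, Gdf10 at 0.20 and the procollagen-cleaving protease Bmp1 at 0.19 log2 units. The call of Gdf10 was lost when single arrays were left out (adjusted p = 0.169 without control array 2). Gdf11 fell by 0.35 on the log2 scale. Bmp2 read 4.53, 4.66 and 4.55 on control and 4.62, 4.55 and 4.55 on Pax7 arrays and did not pass. Bmp7 read 6.03, 5.93 and 6.02 on control and 6.09, 6.05 and 6.28 on Pax7 arrays and did not pass either.

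The BMP antagonists moved both ways, 5 up and 5 down of 14 measured, where 21.6% of all genes rose and 21.5% fell. Follistatin (Fst), which binds activins, myostatin and some BMPs, read 10.74, 10.97 and 10.88 on control arrays and 8.36, 8.47 and 8.48 on Pax7 arrays. It was 5.39-fold lower, but still higher than on the Pax3 arrays (7.75, 7.48 and 7.66). Noggin (Nog), a secreted trap for Bmp4, fell by 1.40 log2 units, Fstl3 by 1.01 and Bmper by 0.95. Gremlin 1 (Grem1), which also binds Bmp4, read 6.998, 6.66 and 6.99 on control and 8.74, 8.80 and 8.78 on Pax7 arrays. Its rise was 1.89 ± 0.083 log2 units, and that of Crim1, a membrane protein that binds BMPs within the producing cell, 2.45 ± 0.076. Chrd, Chrdl2 and Twsg1 rose by 0.12 to 0.20, and the calls of Chrd and Chrdl2 were lost when single arrays were left out (adjusted p = 0.137 without Pax7 array 1 and 0.13 without control array 1).

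Receptors and Smads were split in the same manner, with 6 of 16 up and 6 down (background 21.6% and 21.5%). The BMP co-receptor hemojuvelin (Hjv), a gene of muscle and liver, read 9.63, 9.84 and 9.75 on control and 7.19, 7.19 and 7.02 on Pax7 arrays and was 6.11-fold lower. The type II receptor Acvr2a changed by -1.72 ± 0.067, the co-receptor Rgmb by -0.73 ± 0.061 and the type I receptor Acvr1 by -0.48 ± 0.040. Betaglycan (Tgfbr3) rose by 1.55 ± 0.043, the type I receptor Bmpr1b by 0.83 ± 0.078 and Rgma by 0.63 ± 0.062. Of the signal-carrying Smads, Smad1 differed by 0.34, Smad9 by 0.34 and Smad5 by -0.22, each past the threshold. The type II receptor Bmpr2 did not pass, at -0.13 ± 0.059 (adjusted p = 0.114).

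Target and feedback genes of BMP signals included strong falls. Of 15 measured, 1 rose and 8 fell (background 21.6% and 21.5%), with a median of -0.24 log2 units. Id1, which binds and blocks myogenic bHLH factors, read 10.36, 10.46 and 10.52 on control and 9.60, 9.48 and 9.60 on Pax7 arrays. Id2 changed by -0.52 ± 0.050 and Id3 by -0.24 ± 0.072, while the difference of Id4, at 0.25 ± 0.096, did not pass (adjusted p = 0.0546). The largest falls were in Hey1, a repressor that Notch also controls, at -3.10 ± 0.073, and in the osteoblast factor Sp7, at -2.31 ± 0.056. The pseudoreceptor Bambi was the single rise, at 0.44 ± 0.065. The feedback inhibitors Smad6 and Smad7 differed by -0.13 and -0.05 and did not pass. Of all genes 8.33% were higher and 8.54% lower on Pax7 than on Pax3 arrays. In that comparison 4 of the target genes were higher, namely Id4, Smad6, Alpl and Bambi, at 0.22 to 0.51 log2 units, and Dlx3 was lower. Of these, Bambi, Alpl and Dlx3 missed the threshold when single arrays were left out (adjusted p up to 0.149 without Pax7 array 1), as did the fall of Id3 against control (0.0645 without control array 1).

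**Figure D2:**
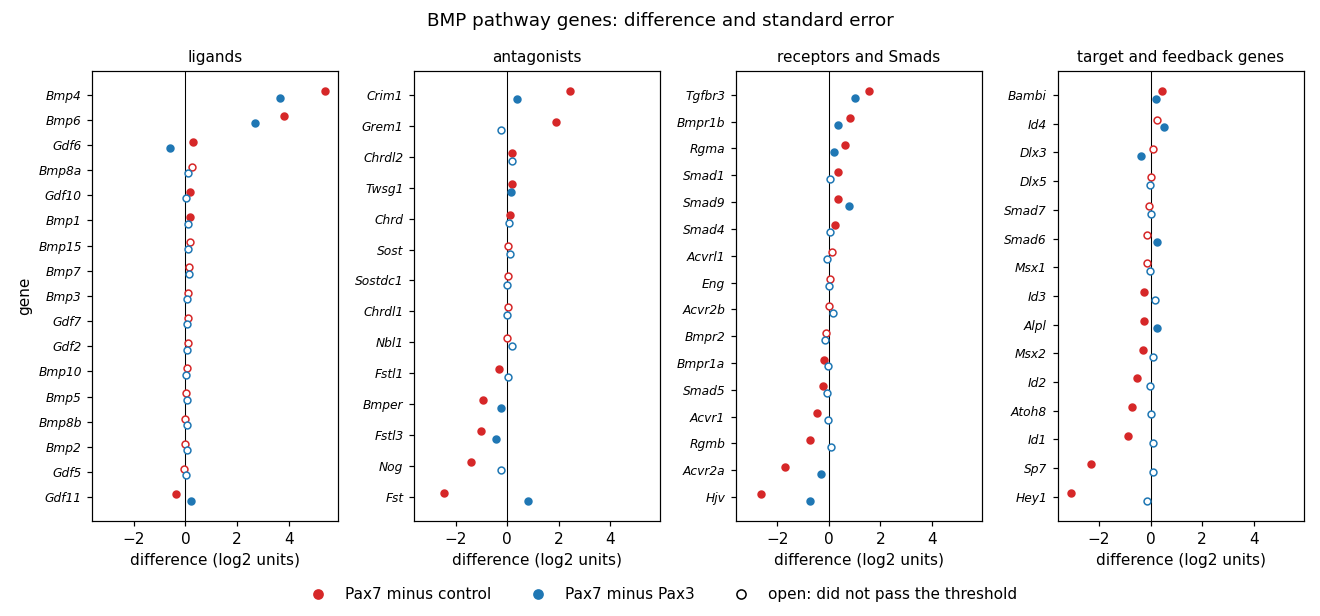
Difference in log2 units for BMP ligands, antagonists, receptors with Smads, and target genes, as Pax7 minus control (red) and Pax7 minus Pax3 (blue), with standard errors that are mostly smaller than the points; open points did not pass the threshold. Bmp4 and Bmp6 stand alone at the right of the ligand panel, and 8 of the 15 target genes have filled red points below 0.

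Of 22 genes measured in a list of glucose uptake and glycolysis, 13 rose and 7 fell, with a median of 0.21 log2 units. Slc2a3 encodes GLUT3, a high-affinity glucose transporter best known from neurons. Its log2 intensity was 5.96, 5.96 and 6.01 on control arrays, 7.31, 7.48 and 7.31 on Pax3 arrays and 10.37, 10.26 and 10.27 on Pax7 arrays. It was 20.0-fold above control (4.32 ± 0.056, adjusted p = 1.63e-12) and 7.66-fold above Pax3 arrays. The lactate exporter Slc16a3 rose by 2.73 ± 0.049 and hexokinase 2 (Hk2), which traps glucose in the cell, by 1.85 ± 0.052. Platelet-type phosphofructokinase Pfkp read 8.26, 8.16 and 8.19 on control, 8.36, 8.59 and 8.29 on Pax3 and 9.73, 9.54 and 9.60 on Pax7 arrays. Its 3 Pax7 arrays stood above both other groups, whereas Hk2 differed from Pax3 arrays by -0.11 ± 0.052 and did not pass there.

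Other members moved both ways. The widely expressed transporter Slc2a1 rose by 0.66 ± 0.048, the lactate carrier Slc16a1 by 0.77 ± 0.056, the regulatory kinase Pfkfb3 by 1.39 ± 0.059 and neuronal enolase Eno2 by 1.197 ± 0.064. Insulin-responsive Slc2a4, the GLUT4 of mature muscle, is not in that list and changed by -0.56 ± 0.041. The pyruvate dehydrogenase kinases split, with Pdk1 at 1.01 ± 0.103 and Pdk4, a gene of fasting and fat oxidation in muscle, at -1.84 ± 0.047. Between Pax7 and Pax3 arrays 5 genes of the list were higher and 1 lower, against 8.33% and 8.54% of all genes.

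Several of these genes respond to low oxygen in other cells, and a list of hypoxia-response genes showed 10 rises and 4 falls of 20. The oxygen-sensing prolyl hydroxylase Egln3 rose by 2.18 ± 0.072 and Ndrg1 by 2.46 ± 0.051. Ero1a, an oxidase of the endoplasmic reticulum, rose by 1.12 ± 0.045. Hif1a and Vegfa rose by 0.39 and 0.22, Ddit4 fell by 1.01, and carbonic anhydrase 9 (Car9) did not pass, at 0.101 ± 0.048. The Pax7 and Pax3 arrays were close in this list, with 1 gene higher, 2 lower and a median difference of -0.03. Of all genes 8.33% were higher and 8.54% lower in that comparison.

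Car3 had the largest fall of all genes that could be named. Carbonic anhydrase 3 is an abundant cytosolic protein of slow muscle fibres, fat and liver with weak enzyme activity. It read 12.71, 12.78 and 12.77 on control arrays, 9.09, 9.03 and 9.03 on Pax3 arrays and 6.70, 6.42 and 6.25 on Pax7 arrays. Every Pax7 array was below every Pax3 array, and the fall against control was 78.6-fold (-6.30 ± 0.091, adjusted p = 3.06e-12). The carbonic anhydrases as a list moved both ways. Of 16 measured, Car3 included, 4 rose and 5 fell, with a median of -0.01. Of all genes 21.6% rose and 21.5% fell. Car8, which has no catalytic activity, changed by -2.13 ± 0.091, cytosolic Car2 by -1.48 ± 0.099 and Car13 by -0.82 ± 0.040. Secreted Car6 rose by 1.33 ± 0.134, mitochondrial Car5b by 1.21 ± 0.067 and the membrane-bound enzymes Car14 and Car12 by 1.14 ± 0.071 and 0.96 ± 0.086. Car5b is X-linked, and its difference between Pax7 and Pax3 arrays, at -0.05 ± 0.067, did not pass. Car14 was the one carbonic anhydrase higher on Pax7 than on Pax3 arrays (by 0.95 ± 0.071).

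Factors of muscle differentiation fell, and the commitment factor Myf5 rose. Myogenin (Myog), the bHLH factor that starts terminal differentiation, read 11.55, 11.65 and 11.50 on control arrays, 10.24, 10.25 and 10.32 on Pax3 arrays and 9.13, 9.26 and 9.01 on Pax7 arrays. No array of one group reached another, and Myog was 5.40-fold lower than in control (adjusted p = 2.13e-10) and 2.20-fold lower than in Pax3 arrays. Its partner Mef2c showed the same order, with 9.17, 9.49 and 9.23 on control, 8.06, 8.05 and 7.90 on Pax3 and 6.80, 6.96 and 6.70 on Pax7 arrays. Mef2a changed by -1.21 ± 0.039, Mef2d by -0.37 ± 0.068, and the transcriptional cofactor Eya1 by -1.53 ± 0.072. Myod1, which opens muscle genes for transcription, moved little, from 12.60, 12.64 and 12.60 to 12.21, 12.18 and 12.16 (-0.43 ± 0.043). Myf5 read 9.33, 9.37 and 9.49 on control, 11.42, 11.34 and 11.34 on Pax3 and 11.45, 11.34 and 11.46 on Pax7 arrays. The Pax groups overlapped for Myf5 and differed by 0.05 ± 0.056 (adjusted p = 0.662). In all, 4 of 21 myogenic factors rose and 15 fell. Compared with Pax3 arrays 7 were lower and 1 higher, against 8.54% and 8.33% of all genes.

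The genes of the sarcomere, the contractile unit of the fibre, fell as a group. Of 62 measured, 50 fell, 3 rose and 9 did not pass, against 21.5% of all genes that fell. The median was -1.49 log2 units. Bulk arrays cannot tell fewer differentiated cells from less of these transcripts in each cell. In thin filaments, cardiac actin Actc1 read 12.84, 12.90 and 12.80 on control arrays and 10.15, 9.98 and 9.64 on Pax7 arrays. Nebulin (Neb), which sets filament length, read 11.13, 11.20 and 11.17 on control and 7.81, 7.83 and 7.62 on Pax7 arrays. In thick filaments, embryonic myosin heavy chain Myh3 changed by -3.31 ± 0.093 and the light chain Myl1 by -2.93 ± 0.106. The myosin heavy chain genes share near-identical stretches, so a probe set may read more than 1 of them. The giant spring protein titin (Ttn) changed by -2.57 ± 0.081, and the myosin-folding methyltransferase Smyd1 by -2.91 ± 0.056. The rises were in Myom2, at 0.80 ± 0.075, Nebl, at 0.27 ± 0.055, and Myoz1, at 0.23 ± 0.043. Tropomyosin Tpm1, which non-muscle cells also use, changed by -0.32 ± 0.042.

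Most of these genes were lower on Pax7 than on Pax3 arrays as well. In that comparison 39 sarcomere genes were lower and 1, Trim54, was higher, against 8.54% of all genes that were lower. For 43 of the 50 genes that fell against control, the Pax3 mean lay between the control and Pax7 means. The same share over all falling genes was not computed. Myl1 read 12.03, 12.14 and 11.97 on control, 11.49, 11.35 and 11.22 on Pax3 and 9.25, 9.26 and 8.86 on Pax7 arrays, a step of -2.23 ± 0.106 between the Pax groups. The light chain Myl4 read 11.28, 11.21 and 11.24 on Pax3 and 11.20, 11.35 and 11.14 on control arrays, which overlap, and 10.07, 9.93 and 9.66 on Pax7 arrays. Adult fast myosin Myh1 read 5.28, 5.09 and 5.15 on Pax3 and 5.10, 5.05 and 5.04 on Pax7 arrays, against 9.15, 9.71 and 9.06 on control arrays. Both Pax groups lay near the level of the lower marker lists of other cell types. They were not shown to be above background, so a difference between them was not read there.

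**Figure D3:**
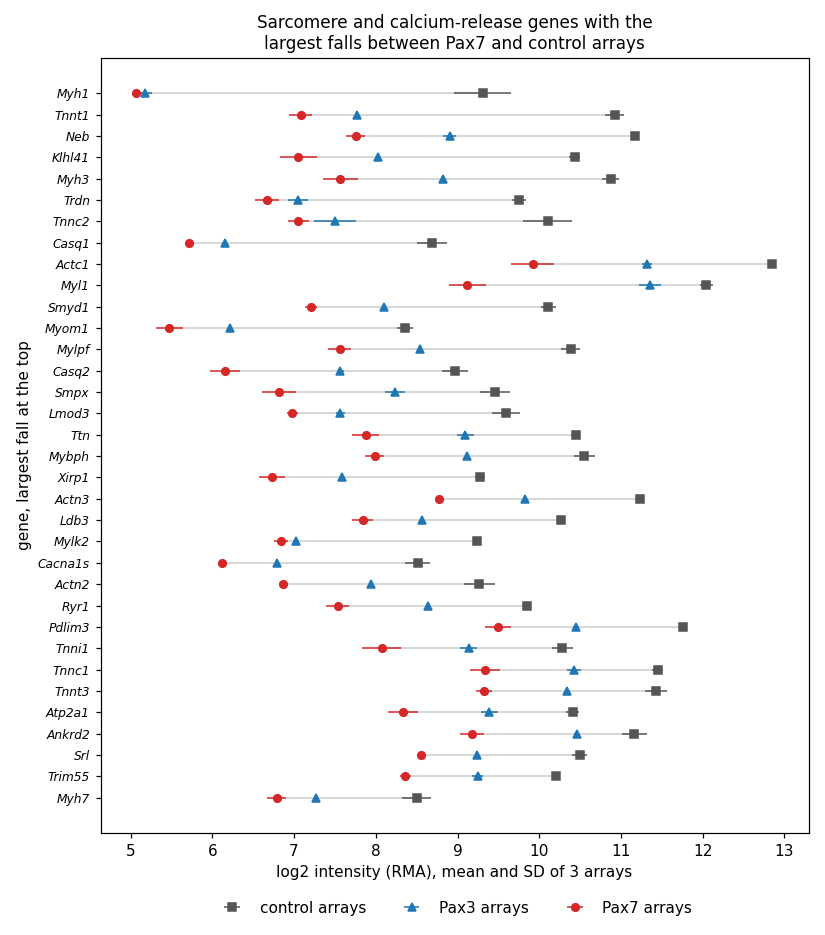
Mean and SD of log2 intensity over 3 arrays for the 34 sarcomere and calcium-release genes with the largest falls between Pax7 and control arrays, ordered by the fall. For each gene the Pax7 mean (red circle) is the lowest, the control mean (grey square) the highest, and the Pax3 mean (blue triangle) lies between them.

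Genes of calcium handling in the fibre fell too. In muscle the voltage sensor Cacna1s opens the release channel Ryr1, calsequestrin stores the calcium and the pump Atp2a1 returns it. Of 21 such genes 17 fell and 1 rose, with a median of -1.04. Cacna1s changed by -2.40 ± 0.068, Ryr1 by -2.31 ± 0.064 and its adaptor Stac3 by -1.66 ± 0.055. Calsequestrin 2 (Casq2) read 8.97, 9.13 and 8.81 on control, 7.59, 7.59 and 7.52 on Pax3 and 6.26, 6.27 and 5.94 on Pax7 arrays, with no overlap. Triadin (Trdn), which ties calsequestrin to the channel, changed by -3.09 ± 0.084 and the pump Atp2a1 by -2.08 ± 0.089. Junctophilin 2 (Jph2) was the rise, at 0.47 ± 0.053. Against Pax3 arrays 14 of these genes were lower and none was higher by limma at adjusted p under 0.05. Of all genes 8.54% were lower and 8.33% higher in that comparison.

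Enzymes of muscle energy supply followed, with 14 of 20 lower and 4 higher. Muscle creatine kinase Ckm, which buffers ATP, read 11.16, 11.26 and 11.22 on control and 7.96, 7.97 and 7.86 on Pax7 arrays, a 9.72-fold fall. Muscle phosphoglycerate mutase Pgam2 changed by -2.54 ± 0.102, myoglobin (Mb), the oxygen store, by -1.72 ± 0.070, and the muscle cytochrome oxidase subunits Cox7a1 and Cox8b by -1.59 ± 0.071 and -1.41 ± 0.082. Glycogen phosphorylase Pygm read 9.47, 9.53 and 9.50 on control, 9.53, 9.59 and 9.74 on Pax3 and 8.54, 8.42 and 8.42 on Pax7 arrays, low on the Pax7 arrays alone. The mitochondrial coactivator Ppargc1a rose by 0.95 ± 0.090.

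Genes of myoblast fusion went both ways, with 13 rises and 12 falls among 30 (background 21.6% and 21.5%). Myomaker (Mymk) and myomixer (Mymx), the membrane proteins that drive fusion, both fell. Mymk read 11.54, 11.72 and 11.60 on control, 10.92, 10.93 and 10.98 on Pax3 and 9.93, 10.06 and 9.70 on Pax7 arrays (-1.72 ± 0.082 against control). Mymx changed by -1.82 ± 0.081, and dysferlin (Dysf), which repairs the fibre membrane, by -1.19 ± 0.050. The cell adhesion molecules Ncam1, Itga7 and Cdh15 changed by -1.13 ± 0.040, -0.70 ± 0.038 and -0.65 ± 0.038. In the other direction, Boc, a receptor that promotes myogenesis at cell contacts, rose from 8.10, 8.16 and 8.35 to 10.53, 10.46 and 10.44, while its partner Cdon changed by -0.63 ± 0.133. The Rac activators Dock5 and Elmo1 rose by 3.00 ± 0.054 and 1.36 ± 0.070, and the tetraspanin Cd9 by 1.18 ± 0.051. Nfatc2, a calcium-regulated factor of myotube growth, read 6.40, 6.40 and 6.37 on control, 5.95, 6.16 and 6.04 on Pax3 and 7.41, 7.35 and 7.24 on Pax7 arrays, highest with Pax7 and lowest with Pax3.

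At the neuromuscular junction nerve-derived agrin acts through Lrp4, Musk and Dok7 to cluster acetylcholine receptors. Of 14 genes 7 fell and 2 rose. Lrp4 changed by -1.12 ± 0.042, Dok7 by -0.98 ± 0.053, Musk by -0.78 ± 0.049 and the clustering protein Rapsn by -0.60 ± 0.045. Of the receptor subunits, fetal gamma Chrng changed by -1.06 ± 0.056 and delta Chrnd by 0.49 ± 0.041. The alpha subunit Chrna1 read 12.36, 12.36 and 12.34 on control and 12.26, 12.25 and 12.24 on Pax7 arrays and did not pass.

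Further gene groups also stood lower on Pax7 arrays. Of 22 Asb adaptors and atrophy ubiquitin ligases, 14 fell and 1 rose, with Asb2 at -2.27 ± 0.079, atrogin-1 (Fbxo32) at -1.21 ± 0.063 and MuRF1 (Trim63) at -0.93 ± 0.054. Smooth muscle and stress fibre genes, which serum response factor (Srf) drives, fell in 14 of 19. Among them the actin-binding protein Tagln read 11.40, 11.46 and 11.47 on control, 9.84, 9.84 and 9.84 on Pax3 and 8.25, 8.35 and 8.14 on Pax7 arrays. The LIM protein Csrp2 changed by -3.18 ± 0.070, calponin Cnn1 by -2.55 ± 0.064 and Srf itself by -0.58 ± 0.052. Regulators of muscle splicing fell in 11 of 17. Rbfox1 read 9.68, 9.83 and 9.90 on control and 5.63, 5.56 and 5.52 on Pax7 arrays, Mbnl3 changed by -1.75 ± 0.056 and Mbnl1 by -0.56 ± 0.041. Ptbp1, which represses muscle exons in undifferentiated cells, was the rise, at 0.44 ± 0.045.

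The promoters of the muscle genes were searched for the sites of the factors named above. Windows ran from 250 bases before to 50 after each start in RefSeq (GRCm38.p6), and 15401 of the 19661 genes had at least 1, in 18919 windows. The E-box CAGCTG, bound by Myog and Myod1, was in 16.3% of all windows. It was in 25.1% of the windows of genes that fell by at least 1 log2 unit, in 20% of those that rose by as much, and in 40% (22 of 55) of those of the sarcomere and calcium-release genes that fell. The Mef2 consensus site was in 2.52% of all windows, in 5.37% and 1.96% of the windows of the falling and rising genes, and in 16.4% (9 of 55) of the muscle windows. A Pax7 homeodomain palindrome, TAAT and then ATTA 2 bases apart, was in 0.254% of all windows, in 0.149% and 0.151% of the falling and rising ones, and in none of the 55 muscle windows. Of the 15 largest rises, 10 had a window, and none of these 10 held any of the 3 motifs. The 15 largest falls gave 18 windows, with the E-box in 33.3%, the Mef2 site in 5.56% and the palindrome in none. Both strands were searched, none of the 3 motifs contains another, and a match is a description of sequence and not evidence of binding.

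Stretches of 4 promoters show such matches in genes that fell, all upstream of the start, 5′ to 3′ on the gene's strand, with the matched bases in capitals. Casq2 and Myh1 hold a Mef2 site, Myl1 an E-box and Mef2c the homeodomain palindrome.
Casq2 (chr3:102086306-102086395, plus strand): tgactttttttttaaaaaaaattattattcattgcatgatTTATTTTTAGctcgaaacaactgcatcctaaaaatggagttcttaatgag
Myh1 (chr11:67199852-67199941, plus strand): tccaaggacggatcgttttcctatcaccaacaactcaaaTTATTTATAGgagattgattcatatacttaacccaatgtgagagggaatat
Myl1 (chr1:66945217-66945306, minus strand): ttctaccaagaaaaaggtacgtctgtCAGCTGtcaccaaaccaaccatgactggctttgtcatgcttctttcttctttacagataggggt
Mef2c (chr13:83523518-83523607, plus strand): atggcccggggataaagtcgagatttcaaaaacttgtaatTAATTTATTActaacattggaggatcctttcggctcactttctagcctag
The Mef2 matches begin 69 and 211 bases before the starts of Casq2 and Myh1. The E-box begins 224 bases before that of Myl1 and the palindrome 98 bases before that of Mef2c. These 4 genes were picked after their values were seen.

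Other markers of satellite cells moved both ways. Of 26 markers measured, 16 fell and 7 rose with a median of -0.39. Cd200, a surface glycoprotein, read 11.04, 10.98 and 10.89 on control and 7.73, 7.75 and 7.62 on Pax7 arrays. The receptor Fgfr4 read 10.78, 10.72 and 10.77 on control and 8.53, 8.45 and 8.45 on Pax7 arrays. The hepatocyte growth factor receptor Met changed by -1.15 ± 0.040, syndecan Sdc3 by -0.95 ± 0.042, Cd34 by -0.78 ± 0.076 and the quiescence gene Spry1 by -0.88 ± 0.062. Caveolin 1 (Cav1) read 10.67, 10.73 and 10.72 on Pax3 arrays, near its 10.81, 10.71 and 10.80 on control arrays, and 9.48, 9.25 and 9.48 on Pax7 arrays. The rises included the antioxidant enzyme Gpx3, at 1.81 ± 0.050, and the signalling regulator Rgs2, at 0.75 ± 0.118, which read 5.15, 5.24 and 4.71 on Pax3 and 6.13, 6.06 and 5.90 on Pax7 arrays. Genes of embryonic muscle precursors fell in 14 and rose in 2 of 24, with Tbx15 at -2.69 ± 0.069, Dmrt2 at -1.99 ± 0.078 and Tbx1 at -1.34 ± 0.061.

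Growth factor receptors changed in both directions. FGF receptors are tyrosine kinases that signal through the MAP kinase cascade, whose output Etv factors carry and Dusp and Spry proteins restrain. Fgfr2 read 6.07, 5.96 and 5.85 on control arrays and 9.13, 9.17 and 9.18 on Pax7 arrays, a 9.20-fold rise, while Fgfr4 was 4.85-fold lower. The feedback genes split, as Il17rd rose by 2.48 ± 0.051, Dusp5 by 1.74 ± 0.072, Dusp4 by 1.56 ± 0.070 and Dusp6 by 1.497 ± 0.075, and Spry1 and Spry2 changed by -0.88 ± 0.062 and -0.72 ± 0.066. The output factor Etv4 rose by 2.04 ± 0.075. In this list 14 of 29 genes rose and 7 fell. Compared with Pax3 arrays 9 were higher and 5 lower, against 8.33% and 8.54% of all genes. The labels give the same bFGF dose for all groups.

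The EGF receptor (Egfr) read 6.85, 6.97 and 6.98 on control and 10.11, 10.19 and 10.19 on Pax7 arrays, a 9.36-fold rise. Its ligands epiregulin (Ereg) and transforming growth factor alpha (Tgfa) rose by 2.04 ± 0.103 and 1.54 ± 0.048, betacellulin (Btc) by 0.69 ± 0.046 and Hbegf by 0.64 ± 0.050. Egfr and Ereg did not differ past the threshold between Pax7 and Pax3 arrays (0.08 ± 0.052 and -0.01 ± 0.103), whereas Tgfa was higher on Pax7 arrays by 0.67 ± 0.048. Of 17 EGF family genes, 7 rose and 4 fell (background 21.6% and 21.5%), and the kinase-impaired receptor Erbb3 was among the falls, at -0.60 ± 0.048.

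In the insulin-like growth factor system the ligand and its main muscle binding protein were lower. Igf2, an imprinted growth factor of developing muscle, read 12.25, 12.30 and 12.34 on control, 10.998, 10.93 and 10.93 on Pax3 and 10.27, 10.12 and 10.06 on Pax7 arrays. Igfbp5, which rises during normal myoblast differentiation, changed by -2.65 ± 0.047 and Igfbp2 by -1.62 ± 0.077. The receptor adaptors Grb10 and Grb14, which damp insulin signals, rose by 2.45 ± 0.074 and 2.12 ± 0.055, and Irs1 and Irs2, which pass them on, by 0.80 ± 0.054 and 0.61 ± 0.057. The mean of the probe sets of Irs1 gave a smaller rise of 0.51. Grb10 is also imprinted, and it was lower on Pax7 than on Pax3 arrays by 0.93 log2 units. Of 20 imprinted growth genes 11 fell and 3 rose. Necdin (Ndn) changed by -3.06 ± 0.080, Peg10 by -2.22 ± 0.086, Mest by -1.31 ± 0.046 and the cell cycle inhibitor Cdkn1c by -1.16 ± 0.077.

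Ligands, receptors and targets of the Notch pathway, which keeps satellite cells undifferentiated, were among the falls. Of 24 genes 14 fell and 5 rose, with a median of -0.24. Among ligands, Dll1 read 10.31, 10.35 and 10.40 on control and 7.69, 7.74 and 7.59 on Pax7 arrays, and Jag1 and Jag2 changed by -1.06 ± 0.086 and -0.88 ± 0.054. Among receptors, Notch3 changed by -1.95 ± 0.056, Notch1 by -0.71 ± 0.072 and Notch2 by -0.55 ± 0.055. Among targets, Hey1 read 10.32, 10.37 and 10.36 on control and 7.41, 7.25 and 7.09 on Pax7 arrays, Heyl changed by -2.07 ± 0.105 and Hes1 by -0.44 ± 0.051. The rises included the ubiquitin ligase Dtx4, 2.30-fold up, and the feedback inhibitor Nrarp, at 0.29 ± 0.071, and numbered 3 without control array 1 or 3 or Pax7 array 2 or 3. Notch1 was higher on Pax7 than on Pax3 arrays by 0.51 ± 0.072.

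Ligands of the TGF-beta family moved both ways. Myostatin (Mstn), the muscle-made brake on muscle growth, read 7.25, 7.42 and 7.05 on control, 7.25, 7.27 and 7.08 on Pax3 and 6.71, 6.50 and 6.12 on Pax7 arrays, with the Pax7 arrays alone being low. Tgfb3 and Tgfb2 changed by -1.41 ± 0.058 and -0.43 ± 0.081, while Tgfb1 rose by 0.78 ± 0.053. Inhbb, a subunit of activin B, rose by 2.43 ± 0.078 and was higher than on Pax3 arrays by 1.05 ± 0.078. In the list 8 of 22 genes rose and 8 fell, against 21.6% and 21.5% of all genes. R-spondin 1 (Rspo1), which amplifies Wnt signals by protecting the receptor, read 6.43, 6.38 and 6.61 on control, 7.05, 7.07 and 7.10 on Pax3 and from 9.99 to 10.15 on Pax7 arrays. It was 11.9-fold above control and 7.85-fold above Pax3 arrays. Wnt7a, a ligand known to expand satellite cells, read 4.94, 5.13 and 5.14 on control, 5.05, 4.94 and 5.196 on Pax3 and 7.17, 7.29 and 7.15 on Pax7 arrays, high on the Pax7 arrays alone. Wnt5a rose by 2.56 ± 0.075 and the Wnt-binding protein Sfrp2 changed by -3.42 ± 0.040. The receptor Fzd1 was higher than on Pax3 arrays by 0.94 ± 0.050. In the Wnt list 7 of 44 genes rose, 12 fell and 25 did not pass, where 21.6% of all genes rose and 21.5% fell.

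Lysosome genes rose as a group, mostly by modest amounts. Lysosomes digest proteins, lipids and sugars in acid vesicles, and the factors Tfeb and Tfe3 switch on many of their genes together. Of 32 genes 25 rose, 3 fell and 4 did not pass, against 21.6% of all genes that rose, with a median of 0.49 log2 units. Gpnmb, a glycoprotein of lysosomes and melanosomes, read 7.78, 7.73 and 7.93 on control, 11.50, 11.47 and 11.45 on Pax3 and 12.02, 12.08 and 12.002 on Pax7 arrays. The sugar-cleaving hydrolases beta-mannosidase Manba, hexosaminidase A subunit Hexa and alpha-galactosidase Gla rose by 2.07 ± 0.054, 1.67 ± 0.045 and 1.65 ± 0.053. Manba read 7.25, 7.12 and 7.08 on control and 9.19, 9.28 and 9.19 on Pax7 arrays, far apart. The proteases Ctsb, Ctsl and Ctsd rose by 0.88 ± 0.038, 0.84 ± 0.059 and 0.33 ± 0.040, the granulin precursor Grn by 0.84 ± 0.052 and the cholesterol carrier Npc2 by 0.68 ± 0.048. The membrane proteins Lamp1 and Lamp2 rose by 0.49 ± 0.042 and 0.33 ± 0.047. Tfe3 and Tfeb rose by 0.96 ± 0.049 and 0.59 ± 0.042. Cathepsins H, K and F (Ctsh, Ctsk and Ctsf) changed by -0.94 ± 0.085, -0.36 ± 0.056 and -0.20 ± 0.059, the last losing its call when single arrays were left out (adjusted p = 0.0698 without Pax7 array 1).

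Many lysosome genes were also higher on Pax7 than on Pax3 arrays. Of the 32 genes 16 were higher on Pax7 arrays and none was lower in limma at adjusted p under 0.05, with 8.33% of all genes higher, and the median difference was 0.14. For 24 of the 25 genes that rose against control, the Pax3 mean lay between the other means, a share not computed over all genes. The largest of these differences were Gpnmb at 0.56 ± 0.055, Grn at 0.48 ± 0.052 and cathepsin Z (Ctsz) at 0.46 ± 0.039.

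**Figure D4:**
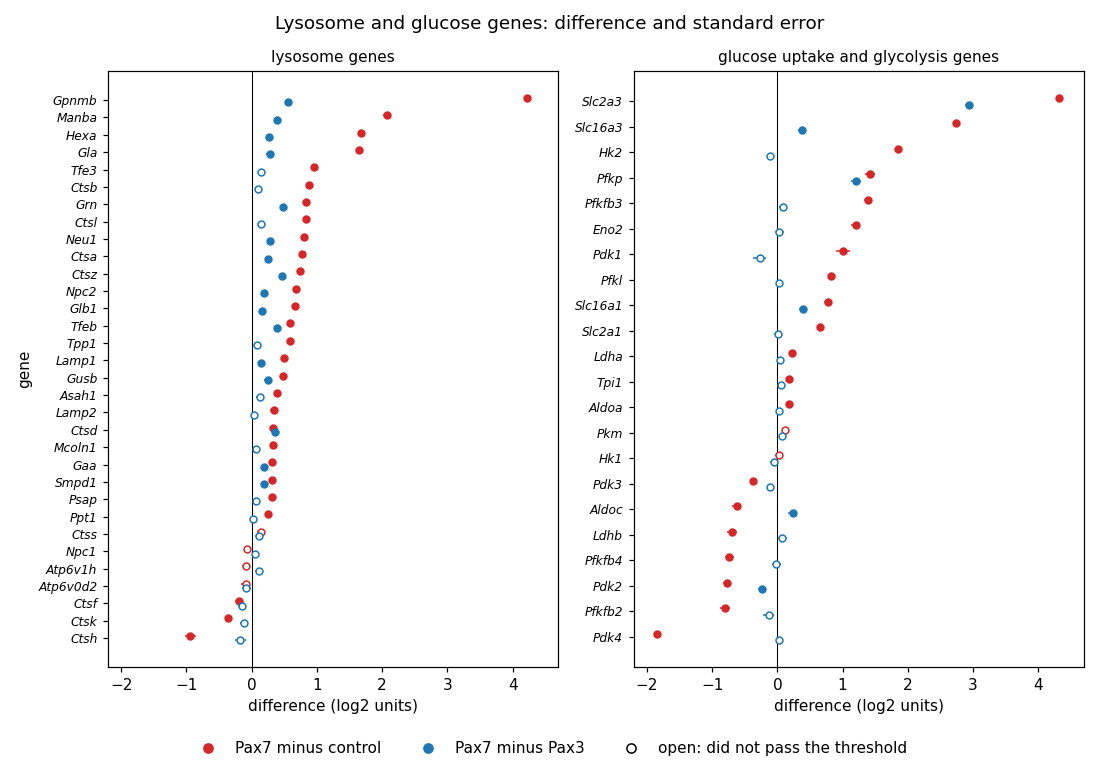
Difference in log2 units with its standard error for 32 lysosome genes and 22 genes of glucose uptake and glycolysis, as Pax7 minus control (red) and Pax7 minus Pax3 (blue); open points did not pass the threshold. Most lysosome genes lie right of 0, and among the glucose genes Slc2a3 and Pfkp have the largest differences from the Pax3 arrays.

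Cholesterol synthesis genes fell in 17 of 22 and rose in 4. The pathway's factor Srebf2 changed by -0.61 ± 0.047, and its enzymes Hmgcs1, Sqle and Cyp51 by -1.15 ± 0.068, -0.72 ± 0.065 and -1.34 ± 0.114. Set against Pax3 arrays, 9 of these genes were higher on Pax7 arrays and none was lower in limma at adjusted p under 0.05. Of all genes 8.33% were higher and 8.54% lower in that comparison. Stearoyl-CoA desaturase Scd1, which makes monounsaturated fatty acids and was included in the list as a target of the same factor family, read 7.25, 7.26 and 7.10 on control, 8.85, 8.80 and 8.63 on Pax3 and 10.65, 10.66 and 10.61 on Pax7 arrays.

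Stress genes of unfolded proteins and amino acid shortage rose in 21 of 35 and fell in 3. The stress factor Ddit3 (CHOP) rose by 1.34 ± 0.066 and its partner Trib3 by 1.49 ± 0.063. The cysteine-making enzyme Cth rose by 2.11 ± 0.088, the serine enzyme Psph by 0.84 ± 0.051, the sensor kinase Ern1 by 1.25 ± 0.051 and the degradation factor Edem1 by 1.10 ± 0.048. The cystine importer Slc7a11 read 10.20, 10.12 and 10.15 on control, 10.65, 10.64 and 10.52 on Pax3 and 11.65, 11.73 and 11.73 on Pax7 arrays, highest with Pax7. Against Pax3 arrays 5 stress genes were higher and 6 lower, where 8.33% and 8.54% of all genes were.

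Interferon response genes rose in 15 and fell in 2 of 27, and the rises numbered 9 without control array 2. Ifit1, an RNA-binding antiviral protein, read 4.99, 5.197 and 4.99 on control and 6.13, 6.13 and 6.10 on Pax7 arrays, and the signal factor Stat2 rose by 0.74 ± 0.059. On the Pax3 arrays Ifit1 was higher still, at 6.85, 6.89 and 6.50.

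Cell cycle genes moved by small amounts. S phase genes fell in 15 and rose in 4 of 33, and genes of G2 and mitosis fell in 11 and rose in 3 of 33. Over all genes 21.5% fell and 21.6% rose. The medians of the 2 lists were -0.10 and -0.08, and no gene of either list changed by 1 log2 unit in limma. Without Pax7 array 2 the falls of the G2 and mitosis list numbered 7. Among the regulators, Cdkn2a, which encodes p16 and p19Arf, rose by 1.58 ± 0.040, cyclin D2 (Ccnd2) by 0.85 ± 0.047, Cdk6 by 0.86 ± 0.053 and Myc by 0.76 ± 0.062. The inhibitors Cdkn1c and Cdkn2c changed by -1.16 ± 0.077 and -1.03 ± 0.076, cyclin E2 (Ccne2) by -0.84 ± 0.080 and the growth arrest gene Gas1 by -2.30 ± 0.048. Mitochondrial respiratory chain genes fell in 18 of 33, at a median of -0.13, and none of them differed between Pax7 and Pax3 arrays in limma at adjusted p under 0.05.

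Several adhesion genes of epithelial type rose. Besides Dsp, the desmosome linker plakoglobin (Jup) read 8.68, 8.75 and 8.90 on control, 9.89, 9.99 and 9.96 on Pax3 and 11.28, 11.29 and 11.18 on Pax7 arrays. Perp, a membrane protein of desmosomes, read 7.59, 7.78 and 7.83 on control, 8.37, 8.37 and 8.27 on Pax3 and 10.53, 10.44 and 10.40 on Pax7 arrays. Keratin Krt18 read 6.20, 6.56 and 6.51 on control, 7.08, 7.08 and 7.08 on Pax3 and 8.72, 8.86 and 9.02 on Pax7 arrays. These 3 genes were clearly above both other groups on the Pax7 arrays. The junction receptor Cxadr rose by 3.54 ± 0.056. The list as a whole had 13 rises and 4 falls among 29, and E-cadherin (Cdh1) read 5.35, 5.35 and 5.35 on control and 5.35, 5.36 and 5.44 on Pax7 arrays.

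Integrins and laminins also moved both ways, with 13 rises and 10 falls among 31 (background 21.6% and 21.5%). The laminin receptor subunit Itgb4 rose by 2.67 ± 0.057, the collagen receptor subunit Itga1 by 1.78 ± 0.081 and Itga3 by 1.22 ± 0.046. Itgb3, a vitronectin receptor subunit, read 6.35, 6.37 and 6.46 on control, 6.65, 6.79 and 6.79 on Pax3 and 7.85, 8.01 and 8.12 on Pax7 arrays, and the laminin chain Lama3 was higher than on Pax3 arrays by 1.04 ± 0.051. Itgb6 and Itgb8, which release latent TGF-beta, changed by -2.88 ± 0.0996 and -2.66 ± 0.113, and the fibronectin receptor subunit Itga4 by -1.92 ± 0.096.

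Genes of the matrix around the cells moved both ways. Of 40 matricellular proteins and proteoglycans 13 rose and 15 fell. The anti-adhesive protein tenascin C (Tnc) rose by 2.17 ± 0.050, thrombospondin Thbs2 by 2.14 ± 0.062 and the fibulin Efemp1 by 2.60 ± 0.085. Aggrecan (Acan), the large proteoglycan of cartilage, read 5.29, 5.34 and 5.48 on control, 5.89, 5.78 and 5.89 on Pax3 and 7.35, 7.498 and 7.52 on Pax7 arrays. It was highest with Pax7, and the Pax3 arrays also lay above control, by 0.48 ± 0.064. Biglycan (Bgn), a small collagen-binding proteoglycan, changed by -3.15 ± 0.087. Of 32 collagen genes 5 rose and 7 fell, near the 21.6% and 21.5% of all genes. The largest changes each way were those of Col8a1 at 1.69 ± 0.061 and Col5a2 at -1.33 ± 0.046.

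Matrix proteases and their inhibitors rose in 12 and fell in 11 of 35, where 21.6% of all genes rose and 21.5% fell. The urokinase receptor Plaur rose by 2.66 ± 0.053 and the aggrecan-cleaving protease Adamts5 by 1.87 ± 0.044, while Adamts4, which cleaves the same substrate, changed by -2.55 ± 0.070. The elastase Mmp12 read 5.41, 5.08 and 5.23 on control, 5.80, 5.80 and 5.65 on Pax3 and 6.94, 7.21 and 7.14 on Pax7 arrays. The gelatinase Mmp2 was lower than on Pax3 arrays by 0.95 log2 units. Of 9 genes of caveolae, the membrane pits that Cav1 builds, 3 rose and 5 fell, against 21.6% and 21.5% of all genes. The coat proteins Cavin4 and Cavin2 changed by -2.18 ± 0.086 and -1.53 ± 0.073 against control, while Cavin3 rose by 0.42 ± 0.043. Cavin2 was nevertheless higher on Pax7 than on Pax3 arrays, by 1.55 ± 0.073, the opposite of Cav1 in the same comparison.

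Of 39 chemokine and cytokine genes 7 rose and 12 fell, against 21.6% and 21.5% of all genes. The nuclear cytokine Il33 rose by 2.78 ± 0.077. Cxcl12, which guides migrating muscle precursors, read 8.41, 8.41 and 8.52 on control, 7.89, 7.93 and 7.89 on Pax3 and 6.98, 6.92 and 6.98 on Pax7 arrays, lowest with Pax7. The receptor for leukemia inhibitory factor, Lifr, changed by -2.08 ± 0.102 and Ccl2 by -1.19 ± 0.150. Amino acid transporters rose in 12 and fell in 6 of 25. Besides Slc7a8 and Slc7a11, the glutamine transporter Slc1a5 rose by 2.82 ± 0.049 and the arginine transporter Slc7a3 by 1.61 ± 0.054, while the leucine carrier Slc43a1 changed by -1.82 ± 0.085.

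Genes known from neurons were split. Besides Nefl, the neurofilament chain Nefm rose by 3.78 ± 0.069, the microtubule regulator Stmn2 by 3.04 ± 0.040 and the adhesion molecule Nrcam by 1.95 ± 0.070. Nrn1, the hydrolase Uchl1 (-2.20 ± 0.054) and 3 others of 25 fell, and 9 rose. Guidance cues and receptors rose in 14 and fell in 16 of 41, where 21.6% of all genes rose and 21.5% fell. The largest moves were semaphorin Sema5a at 2.01 ± 0.069 and semaphorin Sema3d at -2.79 ± 0.072, followed downward by the ephrin receptors Epha7 and Ephb3 at -2.46 ± 0.092 and -2.31 ± 0.055. Of the 6 placental prolactins measured 3 rose, Prl2c5, Prl7d1 (1.83 ± 0.068) and Prl2c1 (0.46 ± 0.128, and 0.29 without Pax7 array 3).

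Transcription factors outside the muscle lineage changed too. Hox genes, which record position along the body, fell in 19 and rose in 7 of 37. Hoxd8 read 4.71, 4.43 and 4.26 on control, 8.12, 8.33 and 7.93 on Pax3 and 7.35, 7.35 and 7.39 on Pax7 arrays, and Hoxb2 and Hoxa11 changed by -1.31 ± 0.044 and -1.17 ± 0.075. The labels do not name the muscle of origin. Of the immediate early factors 9 rose and 5 fell among 21. Klf4 read 8.41, 8.43 and 8.48 on control, 8.71, 8.76 and 8.76 on Pax3 and 10.09, 10.21 and 10.03 on Pax7 arrays, so its rise was mostly with Pax7. Jun changed by -1.75 ± 0.040 and Junb by -0.82 ± 0.062. The clock-linked repressors Bhlhe40 and Bhlhe41 moved apart, at 3.21 ± 0.139 and -1.51 ± 0.062. In a list of 16 chromatin genes, drawn up around histone-methylating partners of Pax7 and not limited to them, 1 rose and 6 fell. The largest change was that of the histone chaperone Hira at -0.88 ± 0.068. The rise was of Kdm6a, an X-linked marker that is not interpreted here. Targets of p53 rose in 5 and fell in 9 of 19, where 21.6% of all genes rose and 21.5% fell. They ran from Btg2, an inhibitor of proliferation, at -1.81 ± 0.074 to the membrane protein Perp at 2.72 ± 0.065.

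Markers of other cell types of muscle were looked at as whole lists, since a bulk culture may hold other cells. The mean log2 intensity of 10 macrophage and leukocyte markers was 5.09 to 5.21 on control and 5.51 to 5.52 on Pax7 arrays. Within the list Cd68, a lysosomal protein, rose by 2.04 ± 0.060 and Laptm5, also of lysosomes, by 1.48 ± 0.090. These were the 2 rises among the 10 markers, while 1 fell (Cd14, at -0.20) and 7 did not pass. Of the 7, Ptprc, Csf1r and Adgre1 read at most 4.999 on any of the 6 arrays. The 9 fibroblast markers averaged 5.32 to 5.37 on control and 5.32 to 5.43 on Pax7 arrays, and the 10 endothelial markers 5.59 to 5.63 on control and 5.83 to 5.88 on Pax7 arrays. Of the fibroblast markers 2 rose and 1 fell, and of the endothelial markers 3 rose and none fell in limma. Over all genes 21.6% rose and 21.5% fell.

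The 8 pericyte markers averaged 7.40 to 7.51 on control and 6.67 to 6.73 on Pax7 arrays, and 6 of them fell. Cspg4 and Mcam, which myoblasts also express, fell most, by 2.43 and 2.92 log2 units, and the peptidase Anpep rose by 3.02 ± 0.060. Adipocyte markers averaged 5.58 to 5.65 on control and 5.73 to 5.77 on Pax7 arrays. The adipogenic factor Pparg rose by 1.32 ± 0.042 and its partner Cebpa changed by -1.05 ± 0.093. Of the 11 adipocyte markers 3 rose, 1 fell and 7 did not pass. The fat cell products Adipoq, Fabp4 and Lep read at most 4.738 on any of these arrays. Adipoq rose by 0.21 ± 0.061 and lost its call without control array 2 (limma adjusted p = 0.0776). Of 6 Schwann cell markers 1 rose and none fell, and of 8 melanocyte markers none passed in limma. The 6 Schwann cell markers averaged 6.77 to 6.81 on control and 6.95 to 7.01 on Pax7 arrays, and the melanocyte markers 5.55 to 5.57 on control and 5.601 to 5.67 on Pax7 arrays. The part of other cells in the differences above was not tested beyond these levels.

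Over all genes, those that separated Pax7 from Pax3 arrays were ranked by the size of the difference. Apart from Pax7 itself, the largest rises among genes that also rose against control were Bmp4, Slc7a8, Rspo1, Slc2a3, Gpm6a, Gpr39, Klk14, Bmp6 and Entpd3. The amino acid transporter Slc7a8 read 5.30, 5.25 and 5.30 on control, 5.31, 5.32 and 5.64 on Pax3 and 8.54, 8.47 and 8.21 on Pax7 arrays. The neuronal membrane protein Gpm6a read 4.79, 4.90 and 5.02 on control, 4.86, 4.90 and 4.85 on Pax3 and 7.87, 7.79 and 7.73 on Pax7 arrays. For both genes the control and Pax3 arrays lay together and the Pax7 arrays far above them. The zinc-sensing receptor Gpr39 was higher than on Pax3 arrays by 2.78 ± 0.049 log2 units, the protease Klk14 by 2.69 ± 0.123 and the nucleotide-cleaving ectoenzyme Entpd3 by 2.52 ± 0.062.

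The largest falls in that comparison, among genes that also fell against control, were of Car3 and of 5 sarcomere or calcium-store genes, namely Myl1, Smpx, Casq2, Actc1 and Myl4, together with Dio2, Iqsec3, Tagln, Srpx2 and the microRNA gene Mir206. Dio2, the deiodinase that activates thyroid hormone in muscle, read 10.93, 10.91 and 10.91 on control, 9.67, 9.74 and 9.74 on Pax3 and 7.57, 7.497 and 7.32 on Pax7 arrays. The secreted protein Srpx2 was lower than on Pax3 arrays by 1.48 log2 units and the Arf regulator Iqsec3 by 1.64.

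A set of genes passed in opposite directions in the comparisons of each factor with control. Of the genes that could be named, 81 did so, and their share was not computed. Isg20, an RNA exonuclease, read 8.85, 8.98 and 8.82 on control, 7.87, 7.92 and 7.77 on Pax3 and 9.98, 9.95 and 9.93 on Pax7 arrays. The secreted neural protein Nell2 read 5.85, 5.86 and 5.96 on control, 5.64, 5.70 and 5.80 on Pax3 and 7.72, 7.73 and 7.68 on Pax7 arrays, so its fall with Pax3 was slight. The sodium pump subunit Atp1b1 read 9.28, 9.26 and 9.32 on control, 8.65, 8.51 and 8.38 on Pax3 and 10.08, 10.04 and 10.03 on Pax7 arrays, with the control between the factors. The mitochondrial aspartate-glutamate carrier Slc25a13 read 7.66, 7.68 and 7.70 on control, 6.99, 7.30 and 7.05 on Pax3 and 8.65, 8.60 and 8.55 on Pax7 arrays. Pax7 itself belongs to this set, as it was lower on Pax3 than on control arrays.

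**Figure D5:**
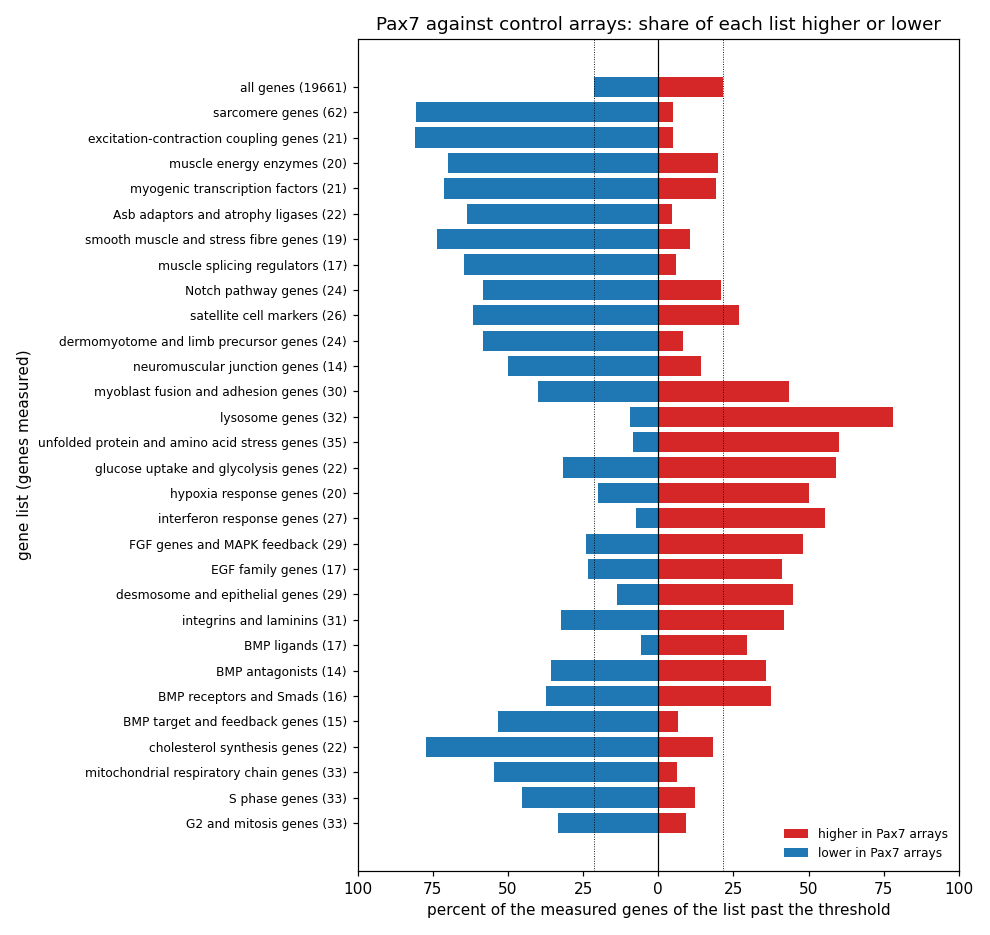
Percent of the measured genes of each list that were higher (red, right) or lower (blue, left) on Pax7 than on control arrays at adjusted p under 0.05, with the number of genes measured in brackets and dotted lines at the shares over all genes. Sarcomere, coupling and smooth muscle genes extend far to the left, lysosome genes to the right, and fusion genes and BMP receptors to both sides.

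Some probe sets are named for microRNA genes, and they may read the longer transcript of such a gene more than the short mature microRNA. Of 297 such genes 25 rose and 29 fell, so 18.2% passed against 43.2% of all genes. These probe sets were dimmer, with a median level of 4.83 against 6.88 log2 units for all genes, and the part of that in the lower share was not tested. The following 4 were chosen after their values were seen, one for its known place in muscle and 3 because they lie in clusters of related microRNAs. Their mature sequences from RefSeq (GRCm38.p6), with the seed (bases 2 to 8) in capitals, share no seed.
miR-206-3p: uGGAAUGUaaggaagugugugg
miR-99a-5p: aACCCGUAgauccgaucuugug
let-7c-5p: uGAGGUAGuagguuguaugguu
miR-125b-5p: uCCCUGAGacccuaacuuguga
Mir206, a muscle microRNA induced by Myod1 and Myog, read 7.22, 7.16 and 7.16 on control, 6.96, 6.84 and 6.84 on Pax3 and 5.78, 5.56 and 5.06 on Pax7 arrays (-1.72 ± 0.139 against control, adjusted p = 1.52e-06). Its Pax7 arrays lay below both other groups. Mir99a and Mirlet7c-1, neighbours on chromosome 16, rose by 1.27 ± 0.088 and 0.67 ± 0.062, and both were higher than on Pax3 arrays, by 0.70 ± 0.088 and 0.26 ± 0.062. Mir125b-1 read 4.76, 5.17 and 5.04 on control and 6.49, 6.42 and 6.29 on Pax7 arrays, and its Pax3 arrays (6.72, 6.92 and 6.07) overlapped the Pax7 arrays.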

How the data were processed

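Total RNA of 9 myoblast samples was hybridised to Affymetrix arrays, per the labels' protocols. The authors deposited log2 intensities that RMA had background-corrected and normalized in R 2.10.0, per the submitters' processing notes; the annotation used for it is not given in the sources used here. RMA pulls the arrays to a common distribution, so a change shared by most genes cannot be seen. Of 25668 probe sets, 20777 had 1 gene symbol, 232 had several and 4659 had none. Of those with 1 symbol, 20696 matched RefSeq by gene identifier and 0 symbols changed. Each of 19661 genes was read from 1 probe set, the brightest on average across the 9 arrays, a choice that touched 564 genes.

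Groups followed the labels. One limma model (version 3.58.1, R 4.3.3) with a mean per group was fitted to all 9 arrays (6 residual degrees of freedom), and p-values were adjusted by Benjamini-Hochberg over all genes, with a threshold of 0.05. Errors of differences are standard errors of that fit with n = 3 per group. The scripts were tested on simulated data.

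Members and gene lists (58 lists, 1312 of 1385 entries measured) were chosen with earlier results of these data known. Named genes are the 15 largest changes each way, the largest each way between Pax7 and Pax3 arrays, the strongest of each list, and the 5 most different genes past in opposite directions, with clone and predicted symbols, microRNAs, receptor families and sex-linked markers counted but not named; other list members are named by role, and the 4 microRNA genes were picked after their values were seen. No pairing was used, since same-numbered arrays did not deviate together in every pair. Alternatives were the 6 arrays alone, a replicate block, an intensity trend with a robust prior, no dim genes, the mean of a gene's probe sets, centred arrays, a test against a 1.2-fold change, and each array left out. Restriction to autosomes and the promoter motif sets were added after seeing the data. The number of arrays limits the precision.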

Additional observations from a re-analysis of the deposited data

Results flagged for a closer look

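Of the genes that passed in opposite directions in the comparisons of each factor with control, 5 had the largest differences between Pax7 and Pax3 arrays. The choice fixed that these differences are large, so they are given as a description. Pax7 itself differed by 4.09 log2 units, as it fell by 2.33 with Pax3 and rose by 1.77 with Pax7. Isg20 differed by 2.09, Nell2 by 2.00, Atp1b1 by 1.54 and Slc25a13 by 1.49. For Nell2 the fall with Pax3 was small beside the rise with Pax7.

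Signal outside the named genes was also present. Among the 4891 probe sets without exactly 1 gene symbol, 1019 (20.8%) passed between Pax7 and control arrays, 503 higher and 516 lower in Pax7 arrays, and 90 of them changed by at least 1 log2 unit. They are not named here.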

How the results depend on the processing

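The count of genes past the threshold between Pax7 and control arrays was 9211 with the 6 arrays alone, 8679 with an intensity trend and robust prior, 6846 without the dimmer genes, 8491 with the mean of a gene's probe sets and 8178 with centred arrays, against 8485. It lay between 7519 and 9253 when each array was left out. Between Pax7 and Pax3 arrays the same settings gave 2842, 3653, 3206, 3313 and 2883 against 3316, and 2507 to 4277 when each array was left out. A test against a 1.2-fold change was stricter by construction and left 3819 genes (1919 higher and 1900 lower) against control and 784 (431 higher and 353 lower) against Pax3. With the replicate block the counts were 8707 and 3328, of which 8311 and 3095 were shared with the fit without it; the labels give the groups the same numbers. Deviations of same-numbered arrays correlated at -0.026 to 0.011 between Pax7 and control and at 0.0092 to 0.22 between Pax7 and Pax3, where 1 of 3 pairs was over 0.1. Between Pax3 and control, in the same fit, they correlated at 0.070, 0.14 and 0.22, and arrays of unlike number at -0.196 to 0.12. Since same-numbered Pax7 and control arrays did not deviate together, the arrays were not treated as paired. Centring shifted all genes by -0.0135 log2 units.

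No value changed sign among the named genes that had passed. The counts of named genes that follow leave out the 1.2-fold test, which was applied to the total counts alone. Against control, 8 of 382 named genes past the threshold missed it under at least 1 of the remaining settings (Adipoq, Chrd, Chrdl2, Ctsf, Gdf10, Id3, Plin1 and Tcf21), and 5 others passed under at least 1. Against Pax3, 36 of 240 missed it (Acvr2a, Alpl, Bambi, Bhlhe40, Bmper, Bmpr1b, Camk1g, Cdkn2a, Cspg4, Csrp2, Cth, Dlx3, Edem1, Erbb3, Gdf11, Hes1, Il33, Irs1, Irs2, Jph2, Kif11, Lamp1, Lrig3, Ndn, Nek2, Npc2, Nrarp, Nrn1, Rapsn, Rgma, Sfrp2, Sox8, Tcf21, Tgfb3, Trdn and Twsg1) and 44 others passed. Of 1044 counts of list members, 985 were within 1.5 times of the reported count. The list counts covered only the settings without dim genes, with averaged probe sets, with centred arrays, and with a control or Pax7 array left out. Trdn, lower than on Pax3 arrays in the fit reported, differed by -0.10 with the mean of its probe sets (adjusted p = 0.77). With 3 arrays per group and a control that may come from other animals, the fold changes against control describe these cultures.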
